A study of Mus musculus with 12 samples.

Results

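Cardiac muscle cells meet end to end at the intercalated disc, where the proteins of most of the genes described here act. The set holds 10 genes: the connexins Gja1, Gja4, Gja5 and Gjc1, the desmosomal genes Pkp2, Dsp, Dsg2, Dsc2 and Jup, and Cdh2. They were chosen by name, as the connexins of heart and its vessels, the desmosome of cardiac muscle and the main cadherin of the disc. All 10 were found by symbol among 55487 genes of the table, each on 1 row, and all 10 were among the 13001 genes that reached an FPKM (a fragment count per library size and per transcript kilobase) of 1 in at least 3 libraries.

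RNA was taken from hearts of wild-type mice in 4 groups of 3 libraries. The Sham group had its chest opened without closing the artery and drank normal water. The Sham+B12 group had the same operation after 7 days with vitamin B12 at 50 mg/L in the drinking water, at an intake of 4 mL a day. In the I/R group (ischemia/reperfusion) the left anterior descending coronary artery was closed for 45 min and then reopened for 24 h, on normal water. The I/R+B12 group had the 7 days of vitamin B12 and then the same 45 min of ischemia and 24 h of reperfusion. Mice were put into groups at random. All hearts, Sham included, came from mice under isoflurane with an opened chest, and strain, age, sex and the piece of heart taken are not given in the sources used here. No library measures a heart without surgery.

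Gap junctions are channels built of connexins, 1 hemichannel from each cell, that pass ions and small molecules so that excitation spreads from cell to cell. Desmosomes tie the intermediate filaments of neighbouring cells together: the cadherins desmoglein and desmocollin span the membranes, plakoglobin and plakophilin bind their tails, and desmoplakin links these to desmin. N-cadherin holds the actin-anchored adherens junctions, which in heart are mixed with desmosomes in the area composita. Mutations in desmosomal genes are a known cause of arrhythmogenic cardiomyopathy, and changes in Gja1 protein and its placement are well known after infarction.

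The libraries held an estimated 24.0 to 28.25 M fragments (pairs of reads), and between 11490 and 12612 genes reached an FPKM of 1. Ventricular cardiomyocyte markers were abundant in every library (12 of 12 genes tested, summed FPKM from 48700 to 76380), while the atrial genes Myl7 (0 to 4.43 FPKM) and Sln (0 to 0.12 FPKM) were near 0. Neutrophil markers went against the labels in 2 libraries. Their summed FPKM over 12 genes was 280.1 in Sham 3 against 12.12 and 15.3 in Sham 1 and Sham 2, and 19.52 in I/R 3 against 1544 and 1668 in I/R 1 and I/R 2. The labels were kept, and results that rest on the libraries labelled Sham 3 and I/R 3 are given with and without them. In bulk tissue fewer cells of a type and less RNA per cell cannot be told apart.

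The 10 messages spanned a wide range of levels. On the FPKM scale, which is per length, the mean over 12 libraries was highest for Jup (109.5), followed by Dsp (96.35), Gja1 (80.7), Cdh2 (52.64) and Pkp2 (50.33). Dsg2 (13.0), Gjc1 (12.06) and Gja4 (12.04) came next, and Dsc2 (4.681) and Gja5 (4.382) were lowest. Most neighbours in this order overlapped in their libraries: Jup ranged from 87.56 to 142.19 and Dsp from 45.47 to 130.26, and Gjc1 from 8.36 to 15.93 and Gja4 from 9.86 to 13.94. The libraries of Pkp2 (38.08 to 78.45) all lay above those of Dsg2 (4.14 to 18.19), and those of Gja4 above those of Dsc2 (1.52 to 6.86). Gja5 varied most, with its highest library at 10.2 times its lowest, and Gja4 least, at 1.41 times.

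**Figure D1:**
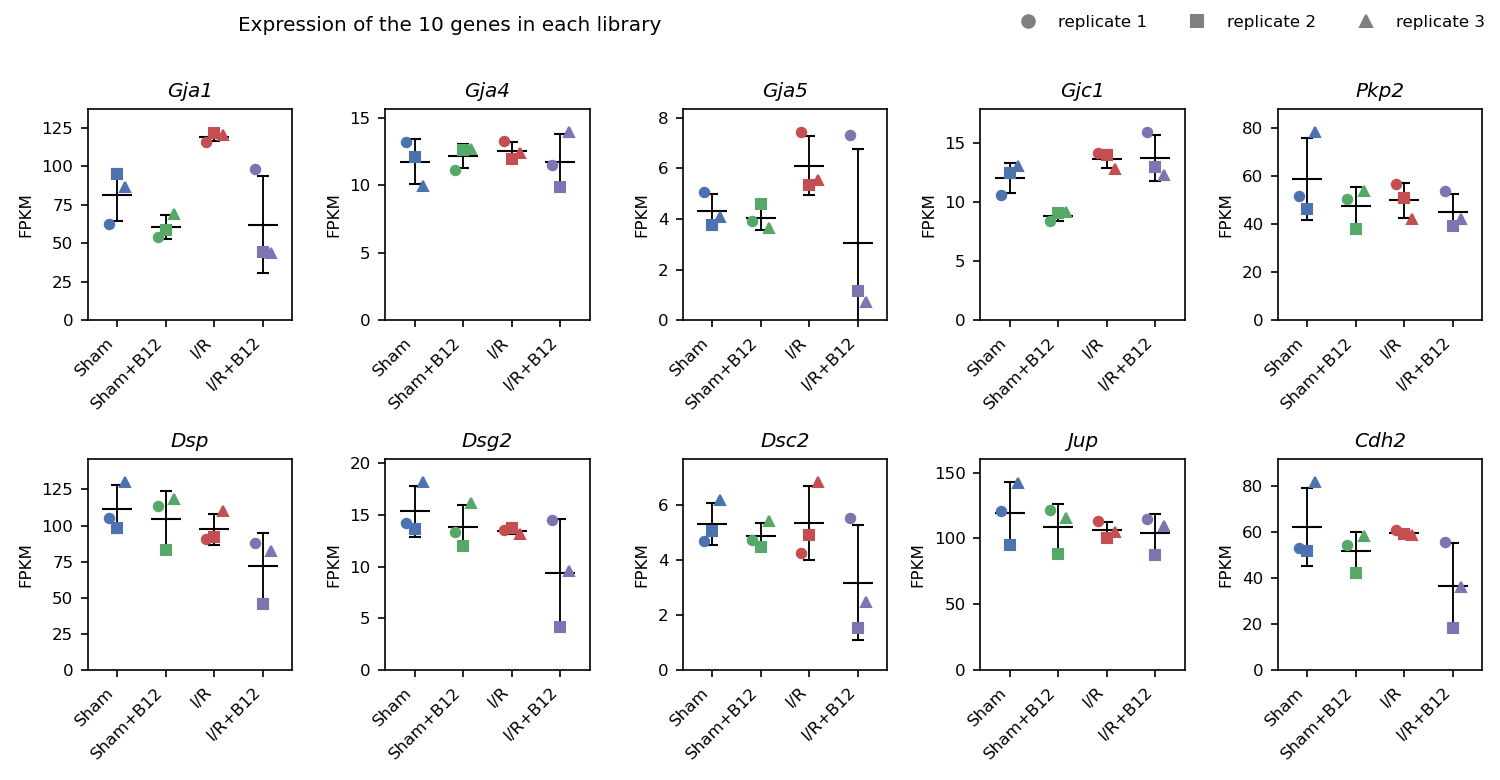
FPKM of each gene (linear axis from 0) in the 4 groups; points are the 3 libraries of a group, the line is their mean and the bar 1 SD. The Gja5 bar of I/R+B12 runs below 0 and is clipped at the axis. In I/R+B12 the circle (replicate 1) sits near the I/R libraries for Gja1, Gja5, Dsg2, Dsc2 and Cdh2, while replicates 2 and 3 lie lower.

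Gja1 encodes Cx43, the main connexin of the working ventricle. Its FPKM was 62.64, 95 and 86.11 in Sham, 53.97, 58.33 and 68.98 in Sham+B12, 115.85, 121.29 and 120.33 in I/R, and 98.27, 44.04 and 43.57 in I/R+B12. The 3 I/R libraries were close together and above all others, and I/R 3, the library with few neutrophil transcripts, was as high as the rest. I/R+B12 was split, with replicate 1 above every Sham library and replicates 2 and 3 below every other library.

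The difference of I/R from Sham in Gja1 was 0.57 on the log2(FPKM + 1) scale (SE 0.27), with no overlap between the libraries and an adjusted p of 0.438 (limma, 12 libraries, all genes). It was 0.39 without Sham 1 and 0.61 (adjusted p = 0.419) with Sham 3 and I/R 3 left out. I/R+B12 lay lower than I/R by a log2 difference of -1.04 (SE 0.27), again without overlap, and missed the threshold of 0.05 with an adjusted p of 0.0857. Without I/R+B12 1 the difference was -1.42 and passed (adjusted p = 0.000579), and without I/R+B12 2 it was -0.85 and did not (adjusted p = 0.263). Against Sham+B12, the other group with vitamin B12, I/R+B12 differed by -0.07 (95% interval -0.67 to 0.54, adjusted p = 0.892), and this sign turned to 0.12 without I/R+B12 2.

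Gja5 encodes Cx40, found in atria, the conduction system and arterial endothelium. It was at 5.08, 3.77 and 4.08 FPKM in Sham, 3.93, 4.59 and 3.63 in Sham+B12, 7.44, 5.34 and 5.53 in I/R, and 7.31, 1.16 and 0.73 in I/R+B12. As with Gja1, all I/R libraries were above all Sham libraries, and I/R+B12 held 1 library as high as I/R 1 beside the lowest 2 of the series. The lowest library stands for at most 68.4 fragments by the estimated depth. The log2 difference was 0.42 (SE 0.45, adjusted p = 0.715) for I/R against Sham and -1.16 (SE 0.45, adjusted p = 0.128) for I/R+B12 against I/R. Without I/R+B12 1 the second was -1.87 and passed (adjusted p = 0.00024), as did the difference from Sham+B12, which went from -0.68 (adjusted p = 0.311) to -1.38 (adjusted p = 0.00117). Without I/R+B12 2 these 2 differences were -0.89 (adjusted p = 0.366) and -0.41 (adjusted p = 0.647). Without I/R+B12 3 they were -0.73 and -0.25.

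Arterial endothelial markers (12 of 12 genes tested) had a summed FPKM of 112.6 and 107.6 in I/R+B12 2 and 3, against 114.7 in I/R+B12 1, 97.44 to 111 in I/R, 84.35 to 98.88 in Sham+B12 and 82.95 to 101 in Sham. Sox17, an endothelial transcription factor, made up 59.05 and 54.71 of the first 2 sums and 13.71 to 31.67 of the others. Without it, a split made after its values were seen, the other 11 summed to 53.57 and 52.93 in I/R+B12 2 and 3, the lowest of the 12 libraries, and to 82.98 in I/R+B12 1 and 74 to 89.38 in I/R. Against I/R, 11 of the 12 markers had a negative difference in I/R+B12 (list median -0.32, against -0.21 over all tested genes, 0 called). Their part in the values of Gja5 was not tested. The atrial marker sum (8 of 12 genes tested) was highest in Sham 3, at 3893 against 666.5 to 1355 elsewhere, and Nppa made up 3156.53 of it. Gja5 in that library was 4.08, between Sham 1 and Sham 2.

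Gja4 encodes Cx37, a connexin of arterial endothelium. It stayed at 9.96 to 13.21 FPKM in Sham, 11.11 to 12.7 in Sham+B12, 11.91 to 13.28 in I/R and 9.86 to 13.94 in I/R+B12. The groups overlapped in every comparison. The 4 log2 differences between groups ran from -0.10 to 0.09, and the 95% interval for I/R+B12 against I/R was -0.42 to 0.23. Their signs changed with the scaling: under median-ratio scaling the 2 differences I/R against Sham and I/R+B12 against I/R were -0.05 and 0.13.

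Gjc1 encodes Cx45, a connexin of the conduction system and of vascular smooth muscle that working myocytes make at a low level. It was the only one of the 10 genes to pass the test in any comparison. Its FPKM was 10.58, 12.47 and 13.08 in Sham, 8.36, 9.06 and 9.13 in Sham+B12, 14.15, 13.97 and 12.77 in I/R, and 15.93, 12.95 and 12.3 in I/R+B12. The 3 Sham+B12 libraries were lower than the other 9, and I/R+B12 lay in the range of Sham and I/R except for its replicate 1, the highest of all.

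Between the 2 groups with vitamin B12, Gjc1 was higher after I/R, at 13.73 ± 1.94 against 8.85 ± 0.426 FPKM (SD, n = 3). The log2 difference was 0.57 (SE 0.13, limma adjusted p = 0.0287, 3 of 3 libraries above all Sham+B12 libraries) and 0.59 under median-ratio scaling. In this comparison 10.4% of the tested genes were called and 6.78% were called as higher, so 1 call among 10 is near the background. The call was kept in 19 of 25 alternatives (adjusted p from 0.0168 to 0.11), and it was lost without any 1 of the 3 Sham+B12 libraries or without I/R+B12 2, without the expression filter, and in a fit of these 2 groups alone. On normal water the I/R difference in Gjc1 was 0.17 (SE 0.13, adjusted p = 0.601). The test of the difference between these 2 responses, the interaction, gave 0.40 (SE 0.19, adjusted p = 0.408).

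The Sham+B12 libraries were also low against Sham. Gjc1 in Sham+B12 was below Sham by a log2 difference of -0.40 (SE 0.13, unadjusted p = 0.0109, adjusted p = 0.999), with no overlap (-0.34 with Sham 3 and I/R 3 left out), while I/R+B12 and I/R differed by 0.00 (95% interval -0.29 to 0.29). These comparisons share groups and are not independent of each other. Pericyte and smooth muscle markers (12 of 12 tested) summed to 370.5 to 392.8 FPKM in Sham+B12, 283 to 465.4 in Sham, 407.9 to 490.3 in I/R and 274.7 to 381.4 in I/R+B12. These sums were lower in I/R+B12 than in I/R. The part of these cells in the values of Gjc1 was not tested.

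The bases before the RefSeq start sites are shown for the 3 connexins with a matched promoter, Gja1, Gja5 and Gja4. Gjc1 had no match. A link between these bases and the levels was not tested. The windows are the 250 bases upstream of the start, read 5′ to 3′ on the gene's strand (RefSeq, build GRCm38.p6). Capitals mark matches on either strand to 5 motifs, and no matches overlap. The core bound by T-box factors was searched as AGGTGT, the site of the AP-1 factors as TGACTCA, and the GC box of the Sp factors as GGGCGG. The E-box was searched as CACGTG and the box bound by the TATA-binding protein as TATAAA. Gja1 lies on chromosome 10, plus strand, window chr10:56377050-56377299. Gja5 lies on chromosome 3, plus strand, window chr3:97032152-97032401, a start that falls inside the span of the GENCODE gene (96904693 to 97077416). Gja4 lies on chromosome 4, minus strand, window chr4:127314040-127314289.
Gja1: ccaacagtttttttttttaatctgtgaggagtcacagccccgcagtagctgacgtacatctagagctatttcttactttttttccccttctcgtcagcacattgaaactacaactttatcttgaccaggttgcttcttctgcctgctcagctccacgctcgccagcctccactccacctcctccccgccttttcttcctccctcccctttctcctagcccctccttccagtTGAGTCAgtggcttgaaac
Gja5: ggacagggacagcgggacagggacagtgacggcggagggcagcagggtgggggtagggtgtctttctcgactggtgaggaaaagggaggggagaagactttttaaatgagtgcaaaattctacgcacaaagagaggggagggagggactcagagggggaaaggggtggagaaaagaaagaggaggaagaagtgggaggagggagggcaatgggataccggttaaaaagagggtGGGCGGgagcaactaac
Gja4: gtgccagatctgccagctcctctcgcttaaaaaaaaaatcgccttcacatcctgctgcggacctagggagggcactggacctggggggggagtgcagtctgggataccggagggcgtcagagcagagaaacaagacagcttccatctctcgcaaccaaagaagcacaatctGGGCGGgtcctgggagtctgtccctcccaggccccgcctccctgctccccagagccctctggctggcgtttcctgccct

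The Gja1 window held 1 AP-1 match, on the minus strand, beginning 19 bases before the start. AP-1 matches were present in 4.46% of all 32851 promoter windows. Gja5 and Gja4 each held 1 GC box, beginning 17 and 79 bases before the start, and GC boxes were present in 32.7% of windows. None of the 3 windows held a T-box core, an E-box or a TATA box in these letters (11.8%, 6.02% and 12.4% of all windows). GC content was 50% for Gja1, 56.4% for Gja5 and 61.2% for Gja4, against a median of 52.4% over all windows. The windows of Dsp and Jup, also matched, had a GC content of 72.4% and 62%, 1 T-box core each, and 4 and 2 GC boxes. A match is a stretch of letters and not a measured site.

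The make-up of the connexin pool followed from these levels. Gja1 was 78.7% ± 1.58 (SD, n = 3) of the summed FPKM of the 4 connexins in I/R, 73.8% ± 4.7 in Sham, 70.6% ± 2.17 in Sham+B12 and 66.8% ± 6.32 in I/R+B12. Its share was 64.8% and 61.8% in I/R+B12 2 and 3, lower than in any other library, and Gjc1 made up 19% and 17.4% there against 8.46% to 12% elsewhere. There were 3.4 and 3.54 units of Gja1 per unit of Gjc1 in these 2 libraries, 6.17 in I/R+B12 1, and 5.92 to 9.42 in the other 9.

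Among the proteins of the desmosomal plaque, Jup (plakoglobin) was the steadiest. Its FPKM was 121.18, 94.94 and 142.19 in Sham, 121.89, 87.94 and 115.46 in Sham+B12, 113.22, 100.58 and 105.12 in I/R, and 115.16, 87.56 and 109.32 in I/R+B12. All groups overlapped and the 4 log2 differences between groups ran from -0.15 to -0.04. The 95% interval for I/R+B12 against I/R was -0.42 to 0.35, and the sign of that difference turned under median-ratio scaling (0.21).

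Pkp2 (plakophilin 2), which binds the cadherin tails beside plakoglobin, had 51.72, 46.34 and 78.45 FPKM in Sham and 38.08 to 53.78 in Sham+B12. In I/R it had 42.27 to 56.7 and in I/R+B12 39.3 to 53.73. Sham 3 was the highest library and the groups overlapped. The difference of I/R from Sham was -0.20 (SE 0.21, adjusted p = 0.708) and became 0.13 with Sham 3 and I/R 3 left out, so its direction rests on those libraries.

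Dsp encodes desmoplakin, the link to the desmin filaments. Its FPKM was 105.27, 98.44 and 130.26 in Sham, 113.43, 82.86 and 118.22 in Sham+B12, 90.56, 91.72 and 109.91 in I/R, and 87.69, 45.47 and 82.36 in I/R+B12. The 3 I/R+B12 libraries were below all 3 I/R libraries, and I/R+B12 2 was far below the rest. The log2 difference of I/R+B12 was -0.48 (SE 0.24, adjusted p = 0.198) from I/R and -0.58 (SE 0.24, adjusted p = 0.12) from Sham+B12. Without I/R+B12 2 these were -0.19 and -0.28.

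The membrane-spanning desmosomal cadherins of the set are Dsg2 (desmoglein 2) and Dsc2 (desmocollin 2). Their I/R+B12 libraries were ordered as in Dsp, with replicate 1 highest and replicate 2 lowest. Dsg2 had 14.17, 13.62 and 18.19 FPKM in Sham, 13.31, 11.98 and 16.14 in Sham+B12, 13.5, 13.73 and 13.14 in I/R, and 14.53, 4.14 and 9.54 in I/R+B12. Dsc2 had 4.7, 5.06 and 6.19 in Sham, 4.73, 4.47 and 5.42 in Sham+B12, 4.27, 4.91 and 6.86 in I/R, and 5.55, 1.52 and 2.49 in I/R+B12. For both genes I/R+B12 1 was within the range of the other groups and I/R+B12 2 and 3 were below all other libraries.

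Against I/R, the log2 difference of I/R+B12 was -0.61 for Dsg2 (SE 0.31, adjusted p = 0.215) and -0.70 for Dsc2 (SE 0.29, adjusted p = 0.15). Without I/R+B12 1 these were -0.97 (adjusted p = 0.0173) and -1.08 (adjusted p = 0.00367), and without I/R+B12 2 they were -0.18 and -0.39. Against Sham, I/R differed by -0.16 in Dsg2 (adjusted p = 0.846) and -0.01 in Dsc2 (adjusted p = 0.996).

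Cdh2 encodes N-cadherin, the adherens junction cadherin of cardiac muscle. It had 53.23, 51.92 and 82.03 FPKM in Sham, 54.64, 42.33 and 58.51 in Sham+B12, 61.01, 59.24 and 59.05 in I/R, and 55.58, 18.15 and 35.98 in I/R+B12. The I/R libraries were within 2 FPKM of each other and all above I/R+B12, whose replicate 2 was the lowest of the series. The log2 difference of I/R+B12 was -0.83 from I/R (SE 0.32, adjusted p = 0.13) and -0.61 from Sham+B12 (SE 0.32, adjusted p = 0.21). Without I/R+B12 1 these were -1.19 (adjusted p = 0.00969) and -0.98 (adjusted p = 0.0266), and without I/R+B12 2 they were -0.41 and -0.19. I/R against Sham was -0.03 (95% interval -0.74 to 0.68) and turned to 0.19 with Sham 3 and I/R 3 left out.

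**Figure D2:**
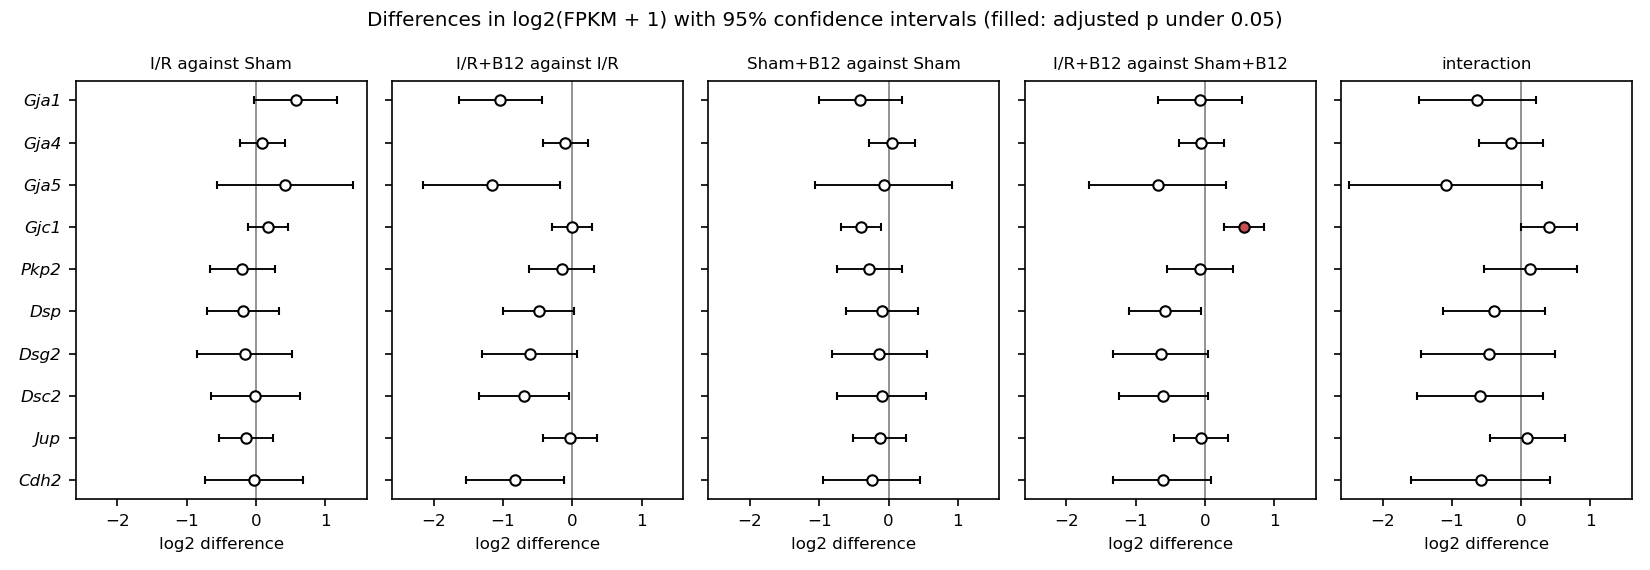
Log2 differences of the 10 genes in the 5 comparisons (horizontal axis, log2(FPKM + 1), with 95% intervals from limma over 12 libraries; interaction is the I/R difference with vitamin B12 minus that on normal water). The filled point, Gjc1 in I/R+B12 against Sham+B12 at 0.57, is the only one with an adjusted p under 0.05.

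Counted over the 10 genes, limma called 0 of 10 for I/R against Sham, 0 of 10 for I/R+B12 against I/R, 0 of 10 for Sham+B12 against Sham and 0 of 10 for the interaction. In these 4 comparisons 0% of all tested genes were called. At an unadjusted p under 0.05 the counts were 0 of 10 for I/R against Sham (11.7% of all tested genes), 4 of 10 for I/R+B12 against I/R (28.5%; Gja1, Gja5, Dsc2 and Cdh2, all lower), and 1 of 10 for Sham+B12 against Sham (1.69%; Gjc1, lower). They were 2 of 10 for I/R+B12 against Sham+B12 (32.3%; Gjc1 higher and Dsp lower) and 0 of 10 for the interaction (12.3%). With Sham 3 and I/R 3 left out the same number was called in each comparison, and the differences of I/R+B12 from I/R were -1.03 in Gja1 (adjusted p = 0.163), -1.22 in Gja5 (0.213) and -0.84 in Cdh2 (0.205).

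Libraries of the groups compared did not overlap for 2 of 10 genes in I/R against Sham (Gja1 and Gja5, higher; 22.4% of all tested genes), and for 3 of 10 in I/R+B12 against I/R (Gja1, Dsp and Cdh2, lower; 23.2%). They did not overlap for 1 of 10 in Sham+B12 against Sham (Gjc1, lower; 10.5%) and for 1 of 10 in I/R+B12 against Sham+B12 (Gjc1, higher; 32.4%). None of these shares was far above that of all genes.

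The median log2 difference of the 10 genes was -0.02 for I/R against Sham, where the median of all tested genes was 0.13. It was -0.55 against -0.21 for I/R+B12 against I/R, -0.14 against -0.07 for Sham+B12 against Sham, -0.32 against -0.02 for I/R+B12 against Sham+B12 and -0.43 against -0.14 for the interaction. Under median-ratio scaling, which set the medians of all genes within 0.01 of 0, the medians of the 10 genes were -0.16, -0.32, -0.06, -0.31 and -0.28 in that order. The sign of each median was kept under this scaling. The gap to all genes depended on the libraries used. Without I/R+B12 2 that group had a set median of -0.18 from I/R (all genes -0.14) and -0.09 from Sham+B12 (all genes 0.05). The interaction was then -0.07 (all genes -0.08). Without I/R+B12 1 or 3 the median from I/R was -0.81 (all genes -0.29) or -0.62 (all genes -0.18). Leaving out Sham 3 and I/R 3 turned the median for I/R against Sham to 0.06 (all genes 0.17).

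The I/R+B12 group was not uniform, and its replicate 1 decided several of these calls. Without it, 5 of 10 genes were called against I/R (Gja1, Gja5, Dsg2, Dsc2 and Cdh2, all lower) where 33.9% of all tested genes were called. Against Sham+B12, 6 of 10 were called (Gja5, Dsp, Dsg2, Dsc2 and Cdh2 lower, Gjc1 higher), with 29.5% of all genes. In the interaction 3 of 10 were called (Gja1 at -1.02, Gja5 at -1.80 and Dsc2 at -0.98), with 14.1% of all genes. In each of these fits I/R+B12 was represented by 2 libraries. Without I/R+B12 2 instead, 0 of 10 were called in any of the 3 comparisons. Few genes of any kind were called there: 0.00769%, 0.377% and 0% of all tested genes, in the same order.

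**Figure D3:**
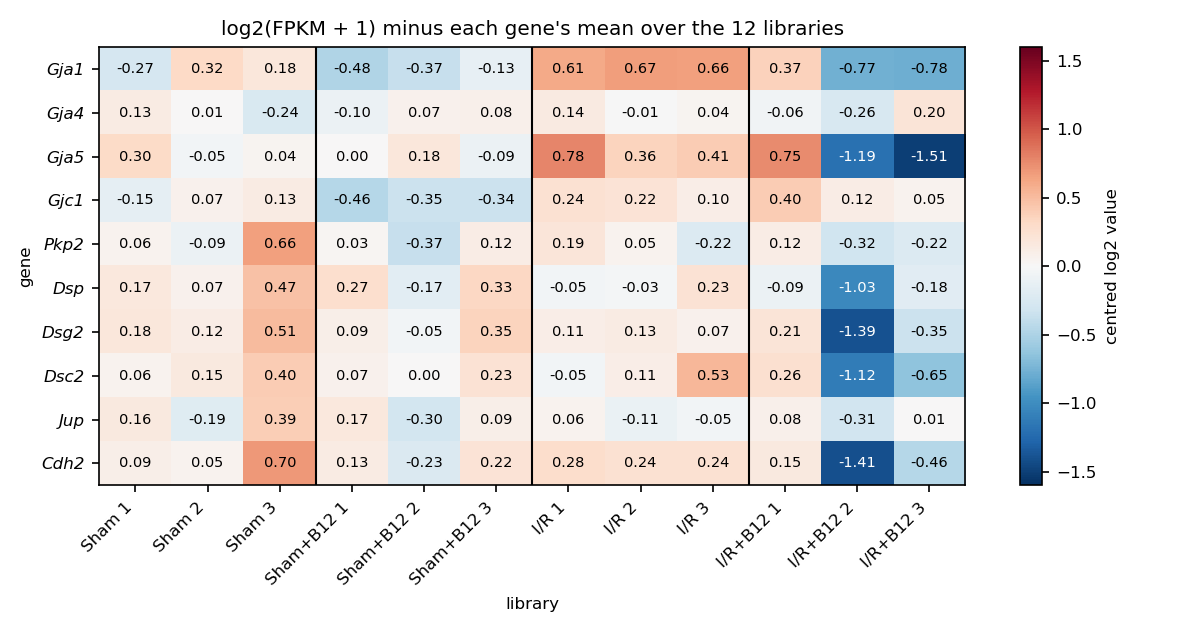
Each cell is a gene's log2(FPKM + 1) in 1 library minus its mean over the 12 libraries, on a colour scale from blue (low) to red (high). Gja5 in I/R+B12 3 (-1.51) and Cdh2 and Dsg2 in I/R+B12 2 (-1.41 and -1.39) are the lowest cells, while Gja4, Gjc1 and Jup in those columns stay between -0.31 and 0.20.

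Which gene was lowest differed between those 2 libraries. Centred on each gene's mean, I/R+B12 2 was at -1.41 in Cdh2, -1.39 in Dsg2, -1.12 in Dsc2 and -1.03 in Dsp, and I/R+B12 3 at -0.46, -0.35, -0.65 and -0.18. Gja1 was at -0.77 and -0.78 in the 2 libraries and Gja5 at -1.19 and -1.51, while Gja4 was at -0.26 and 0.20, its lowest and highest libraries of the series. Of the 10 genes, 8 had their lowest library in I/R+B12 2 or 3, as did 50.2% of all tested genes. Sham 3 was the highest library for 5 of 10 genes (Pkp2, Dsp, Dsg2, Jup and Cdh2) and for 9.21% of all tested genes.

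Ratios within a library do not change when the whole library is scaled by 1 factor, though quantile normalization can change them. Dsg2 per Jup was 0.0473 and 0.0873 in replicates 2 and 3 of I/R+B12, against 0.109 to 0.143 in the other 10 libraries. Cdh2 per Jup was 0.207 and 0.329 there and 0.439 to 0.589 elsewhere. Dsp per Jup was 0.519 and 0.753 there, the latter close to 0.761 in replicate 1 of the same group and 0.8 in I/R 1. Pkp2 per Jup was 0.449 and 0.386, in or near the range of the other libraries (0.402 to 0.552). In these 2 libraries the cadherin messages were low beside those of plakoglobin and plakophilin 2, the plaque proteins that bind them.

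**Figure D4:**
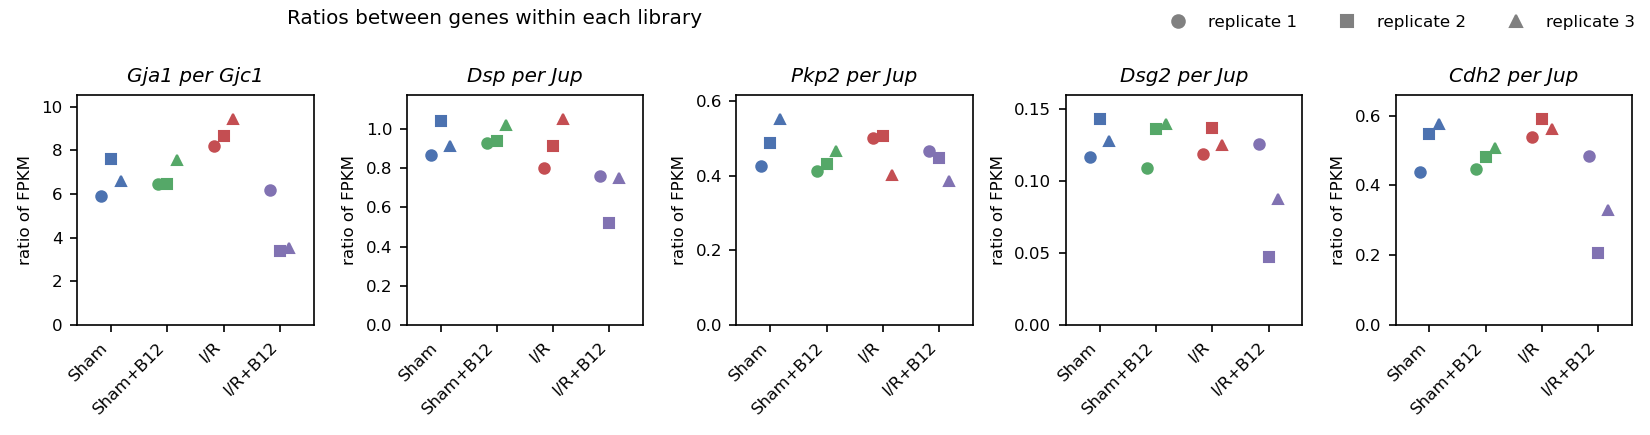
Ratios of FPKM between pairs of genes within each library (linear axes from 0, points are libraries, shapes are replicate numbers). In I/R+B12 replicates 2 and 3 are lowest for Gja1 per Gjc1, Dsg2 per Jup and Cdh2 per Jup, and Pkp2 per Jup has no such gap.

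The summed macrophage markers (12 of 12 tested) were also low in the same 2 libraries. They came to 184.1 and 230.6 FPKM in replicates 2 and 3 of I/R+B12 and to 389.6 in its replicate 1. They summed to 427.5 to 583.6 in I/R, 327.4 to 425 in Sham+B12 and 282.7 to 477.9 in Sham, with no marker at 0 throughout. C1qa, C1qb and C1qc were the largest parts in replicates 2 and 3. Against I/R, 11 of 12 macrophage markers had a negative log2 difference in I/R+B12 and Lyve1 a positive one (0.53). Against Sham+B12, 9 were negative and 3 positive (Ly6c2 at 1.62, Lyve1 at 0.24 and Ccr2 at 0.23). The summed fibroblast markers (12 of 12 tested, none at 0) were low in all 3 I/R+B12 libraries, at 1091, 976.2 and 1174. The sums were 1490 to 1878 in I/R, 1412 to 1539 in Sham+B12 and 1544 to 1877 in Sham. Gsn (523.38 to 655.64) and Dcn (280.24 to 315.32) were the largest parts in I/R+B12. Against I/R, 12 of 12 fibroblast markers had a negative log2 difference in I/R+B12. Against Sham+B12, 9 were negative and 3 positive (Pdgfra at 0.59, Mfap5 at 0.24 and Tcf21 at 0.11). Neutrophil markers (10 of 12 tested, none at 0 throughout) summed to 1250, 3310 and 281.7 in I/R+B12, and replicate 2 was the highest of the series. Their part in the junction values was not tested. Ventricular cardiomyocyte markers summed to 56820 and 73980 in I/R+B12 2 and 3 and to 53190 in I/R+B12 1. Of these 12 markers, 4 had their lowest value of the series in I/R+B12 2 (Pln at 722.12, Atp2a2 at 1746.51, Tnnt2 at 5020.61 and Ryr2 at 73.53 FPKM), while I/R 1 or I/R 2 was lowest for the other 8. Against I/R, 10 of 12 ventricular markers had a positive log2 difference in I/R+B12, and Pln (-0.66) and Tnnt2 (-0.01) a negative one. The list median was 0.16, against -0.21 over all tested genes. Against Sham+B12, 11 were negative and 1 positive (Ttn at 0.17), with a list median of -0.27.

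Dsg2, Dsc2 and Cdh2 share a chromosome: they lie on chromosome 18 (GENCODE M21 on GRCm38, Cdh2 from 16588877, Dsc2 from 20030633 and Dsg2 from 20558074), where the other desmosomal cadherin genes are grouped as well. The 342 tested genes of chromosome 18 had a median centred value of -0.16 and -0.09 in replicates 2 and 3 of I/R+B12, against -0.22 and -0.13 over all tested genes. Transcript length showed no trend in I/R+B12 2, with medians of -0.22, -0.25 and -0.19 in short, middle and long genes, split into 3 bins of equal size by exon length. The remaining members lie on chromosomes 3 (Gja5), 4 (Gja4), 10 (Gja1), 11 (Gjc1 and Jup), 13 (Dsp) and 16 (Pkp2).

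The genes whose profile was most like each member were sought over the 12 libraries among all tested genes, by Pearson r of log2(FPKM + 1), as a description. The libraries share groups, so that r holds the group differences. For Gja1 these were B3galt6 (r = 0.98), S1pr2 (0.97) and Tmem30a (0.96). For Gja5 they were Hspa12b, Rtn3 and B3galnt2 (0.98 each), for Gjc1 Tor1aip2 (0.96), Sec22b and Eif1ax (0.95 each), and for Gja4 Cenpb (0.94), Csnk1g2 and Bbs7 (0.90 each). Dsg2 was followed by Zer1 (0.99), Rbl2 and Nr0b2 (0.98 each), and Cdh2 by Pja2 (0.98), Brat1 and Neo1 (0.97 each).

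Within the set, Dsg2 and Cdh2 were most alike (r = 0.97), Dsc2 was nearest to Cdh2 (0.91), Dsp to Dsg2 (0.93), and Pkp2 and Jup to each other (0.85). Gja1 was nearest to Gja5 (0.78) and Gja5 to Dsc2 (0.79). Gja4 had no near member, with 0.27 to Dsg2 as its best. For Dsp the most similar genes outside the set were Ppm1l, Cap2 and Zfp106 (0.97 each), for Dsc2 Sgo2a (0.98), Kif16b and Smarca2 (0.97 each), for Pkp2 Sun2 (0.93), Sap130 and Atxn10 (0.92 each), and for Jup Wbp2 (0.94), Ranbp10 and Emc1 (0.93 each).

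Of 19 other connexin and pannexin genes, 2 were tested and 16 were under 1 FPKM in every library. None of the 2 was called. Gja3 (Cx46, best known from the eye lens) had 8.17, 8.65 and 12.32 FPKM in I/R and 2.94, 2.86 and 4.56 in I/R+B12, with Sham at 5.15 to 9.5 and Sham+B12 at 5.44 to 5.82. Here all 3 I/R+B12 libraries, replicate 1 included, were below all others. The log2 difference from I/R was -1.27 (SE 0.22, unadjusted p = 0.000133, adjusted p = 0.0739). Panx1, a pannexin that forms channels to the outside of the cell, ranged from 0.57 to 4.66 FPKM and differed by -0.40 (adjusted p = 0.444).

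Of 15 other desmosome and desmin genes, 5 were tested. In I/R+B12 against Sham+B12 0 of 5 were called higher and 2 of 5 lower, with a list median of -0.12. Over all tested genes this comparison called 6.78% higher and 3.62% lower, so the 1 call of a direction in each of the next 3 lists (of 18, 22 and 15 genes) is near the background. Synm, the filament protein synemin that joins desmin, had 1.74, 2.42 and 2.3 FPKM in Sham+B12 and 1.2, 0.58 and 0.34 in I/R+B12, a log2 difference of -0.91 (SE 0.22, adjusted p = 0.0316). Ppl, periplakin, had 2.28, 2.86 and 2.44 and 1.8, 0.57 and 1.0, a difference of -0.77 (SE 0.20, adjusted p = 0.0405). Des itself, the desmin filament to which desmoplakin binds, was at 564.37 to 1187.81 FPKM and differed by -0.12 (adjusted p = 0.765). The epidermal forms Dsg1a, Dsg1b, Dsg1c, Dsg3, Dsg4, Dsc1, Dsc3 and Pkp1 were under 0.1 FPKM in every library.

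Of 21 other adherens junction and area composita genes, 18 were tested, and in I/R+B12 against Sham+B12 1 was called higher and 1 lower, with a list median of 0.02. Nectin3, an adhesion receptor, rose from 1.26, 1.13 and 1.38 FPKM to 2.42, 2.67 and 1.89 (log2 difference 0.55, SE 0.14, adjusted p = 0.0381). Tln2, talin 2, which ties integrins to actin, fell from 11.95, 10.33 and 10.95 to 7.37, 5.42 and 7.8 (log2 difference -0.63, SE 0.16, adjusted p = 0.036). Ctnnb1, beta-catenin, the partner of N-cadherin, was at 164.98 to 195.7 FPKM in I/R and 94.7 to 136.1 in I/R+B12 without overlap, and differed by -0.67 (SE 0.15, unadjusted p = 0.000959, adjusted p = 0.0781).

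Of 22 scaffolds and membrane proteins of the disc, all 22 were tested, and the same comparison called 1 higher and 0 lower, with a list median of -0.23. Popdc3, a Popeye protein that binds cAMP, rose from 12.68, 11.04 and 10.47 to 17.97, 23.29 and 23.76 FPKM (log2 difference 0.86, SE 0.19, adjusted p = 0.0272). Of 15 transcription factors of connexin genes, all tested, 1 was called higher and 0 lower, with a list median of -0.09.

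That factor was Tbx3, a T-box repressor of the conduction system known to lower Gja1 and Gja5. Its FPKM was 2.44 to 3.26 in the 9 libraries of the other groups and 8.3, 5.58 and 4.86 in I/R+B12. All 3 I/R+B12 libraries were above the rest, with a log2 difference from Sham+B12 of 0.95 (SE 0.17, adjusted p = 0.0211) and from I/R of 0.89 (SE 0.17, adjusted p = 0.0739). Its highest library, I/R+B12 1, was the one in which Gja1 (98.27) and Gja5 (7.31) were not low. Whether the levels of Tbx3 and of the connexins are linked was not tested. Conduction system markers (5 of 11 tested, Isl1 at 0, Tbx3 among them) summed to 16.1 to 17.97 FPKM in I/R+B12, 8.61 to 16.2 in I/R, 10.34 to 15.31 in Sham+B12 and 11.75 to 15.46 in Sham. Without Tbx3 the sums in I/R+B12 were 9, 10.52 and 13.11, which overlapped Sham (8.73 to 12.68), Sham+B12 (7.53 to 12.65) and I/R (5.5 to 13.28).

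**Figure D5:**
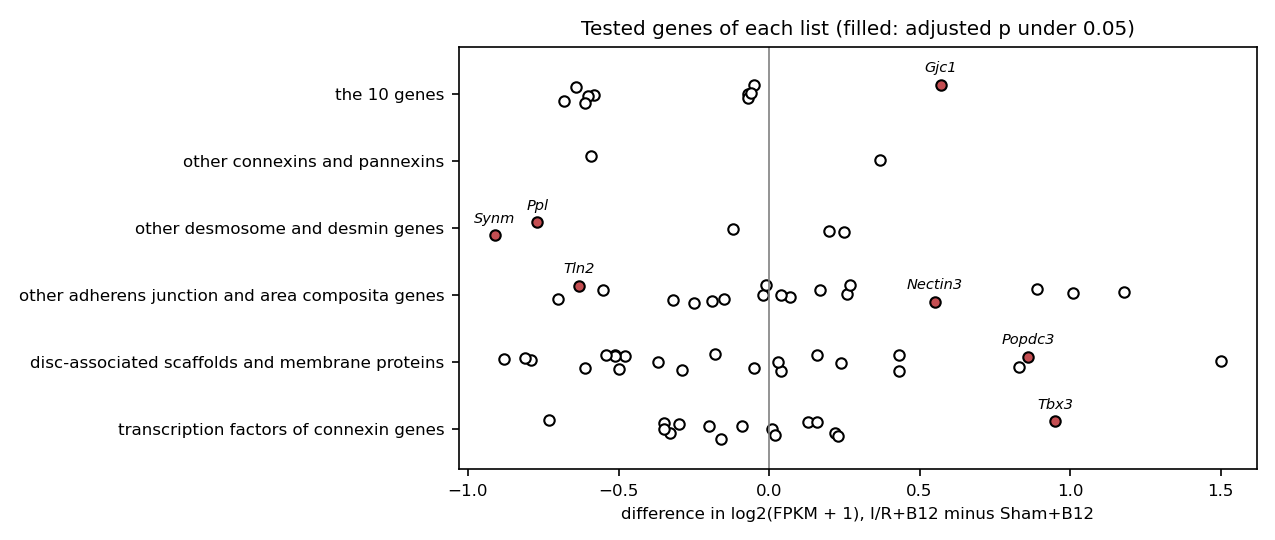
Log2 differences of every tested gene of the 10 and of 5 related lists in I/R+B12 against Sham+B12 (horizontal axis, log2(FPKM + 1); 1 point a gene, shifted at random within its row; filled points have an adjusted p under 0.05). The filled points are Gjc1 (0.57), Nectin3 (0.55), Popdc3 (0.86) and Tbx3 (0.95) on the right and Synm (-0.91), Ppl (-0.77) and Tln2 (-0.63) on the left.

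The 6 calls described outside the 10 genes (Synm, Ppl, Tln2, Nectin3, Popdc3 and Tbx3) kept their direction in the 24 or 25 alternatives that tested them, and each was lost in 5 to 12 of them, every 1 of the 6 without any 1 of the Sham+B12 libraries, without I/R+B12 2 or with the compared groups only. In the other 4 comparisons no gene of the 5 related lists was called. The gene of each list with the smallest unadjusted p for I/R against Sham was Gja3 (0.34, adjusted p = 0.534), Perp (-0.35, adjusted p = 0.618), Actn1 (0.66, adjusted p = 0.466), Fgf13 (-0.35, adjusted p = 0.488) and Mef2a (0.27, adjusted p = 0.442). For I/R+B12 against I/R, Synm differed by -0.81 (adjusted p = 0.0857), Popdc3 by 0.67 (adjusted p = 0.0887) and Mef2c by -0.75 (adjusted p = 0.0887). For Sham+B12 against Sham the largest of these was Perp (-0.55, adjusted p = 0.999), a membrane protein of desmosomes that was high in Sham 3 (107.58 FPKM against 37.93 to 65.53 elsewhere). In the interaction, Tbx3 had 1.01, Synm -1.01, Gja3 -0.94, Popdc3 0.84 and Tln2 -0.66, with adjusted p-values of 0.387 to 0.392. The medians of the 5 lists in these 4 comparisons lay between -0.83, for Gja3 and Panx1 when I/R+B12 is set against I/R, and 0.35, for the same genes when I/R is set against Sham.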

How the data were processed

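The deposited values are FPKM, computed by the authors, in 1 table for 12 heart libraries (poly(A)-selected, paired-end, per the labels' protocols). HISAT2, StringTie and mm10 are named in the submitters' processing notes, without versions. The 4 columns of group means were not used. The table holds no counts. Depth was inferred from genes with 1 transcript, whose low FPKM values are whole multiples of 1 fragment, with 260 nt taken off each length: 84.2% to 88.2% of those values came within 0.15 of a whole fragment. Counting error alone is covered by such figures.

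Values were analysed as log2(FPKM + 1) in the genes that reached 1 FPKM in 3 libraries or more. All 12 libraries were fitted with limma 3.58.1 (R 4.3.3, variance trend), tests were two-sided, and the Benjamini-Hochberg adjustment ran over 13001 genes in each of 5 contrasts. A fold change on this scale understates the change of low genes. The fit was tested on simulated data. Nothing says whether each library is its own mouse, so p-values measure the spread between these libraries. Replicate numbers were not used as pairs: deviations of 18 same-number pairs correlated by 0.01 on average (-0.41 to 0.39).

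Coordinates are from GENCODE M21 and promoters from RefSeq (GRCm38.p6), in which 5 of 10 members matched. Alternatives were pseudocounts of 0.5 and 0.1, other filters (none, or FPKM 5), other scalings (median ratio, quantiles, mitochondrial genes removed), other variance models, library weights, a replicate block, and fits with fewer groups or libraries. Figures were drawn with matplotlib 3.10.9. The 10 members and all lists were chosen with earlier results of these data known. A gene of the related lists is not reported here and is left out of their counts, medians and plot. Named from a list were its called genes (up to 4), or else the 2 with the smallest p. For likeness, the 3 genes with the highest r were named, leaving out predicted genes.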

Additional observations from a re-analysis of the deposited data

How the results depend on the processing

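Each result was refitted under 25 alternatives (24 for the interaction). The count of called members moved with the libraries. Leaving out 1 library at a time gave 0 to 5 calls for I/R+B12 against I/R, where 0% to 33.9% of all tested genes were called. It gave 0 to 6 calls (0% to 29.5%) for I/R+B12 against Sham+B12 and 0 to 3 (0% to 14.1%) for the interaction. The highest count and share came each time without I/R+B12 replicate 1. The number called for I/R+B12 against Sham+B12 was 0 with no filter (0.971% of all genes) and 0 with the compared groups only (1.85%). Library weights, which give less weight to libraries far from their group, gave 2 calls for I/R against Sham (Gja1 at 0.72 and Gjc1 at 0.27), 5 for I/R+B12 against I/R, 4 for I/R+B12 against Sham+B12 and 2 for the interaction, where 33.9%, 33.3%, 23.7% and 14.1% of all genes were called. The estimation of these weights stopped before its tolerance was reached. The replicate block changed no member's call: Gjc1 in I/R+B12 against Sham+B12 stayed at 0.57 (adjusted p = 0.0453), and 1057 in place of 1352 of all genes were called.

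Signs turned only in differences that had not passed the test. Under median-ratio scaling these were Gja4 at -0.05 for I/R against Sham, Gja4 at 0.13, Pkp2 at 0.09 and Jup at 0.21 for I/R+B12 against I/R, and Gja4 at 0.01 in the interaction. Under quantile normalization they were Gja4 at -0.07 and 0.10 and Jup at 0.01 in the first 2 comparisons, and Gja5 at 0.02 for Sham+B12 against Sham. Library weights turned Gja4 (-0.04) and Cdh2 (0.08) for I/R against Sham, Gja4 (0.07), Gjc1 (-0.11) and Jup (0.05) for I/R+B12 against I/R, and Gja4 (-0.01), Dsp (0.05), Dsg2 (0.02) and Dsc2 (0.03) for Sham+B12 against Sham. They also turned Gja4 (0.04) for I/R+B12 against Sham+B12, and Gja4 (0.08) and Pkp2 (-0.17) in the interaction. Leaving out Sham 3 and I/R 3 turned Gja4 (-0.01), Pkp2 (0.13) and Cdh2 (0.19) for I/R against Sham, Gjc1 (-0.04) for I/R+B12 against I/R, Gja4 (-0.05), Dsp (0.02) and Jup (0.00) for Sham+B12 against Sham, and Pkp2 (-0.20) and Jup (-0.05) in the interaction. The cause was not tested.

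With 1 library left out, the I/R against Sham values spanned -0.01 to 0.18 in Gja4, -0.35 to 0.02 in Pkp2, -0.17 to 0.12 in Dsc2 and -0.14 to 0.18 in Cdh2. For I/R+B12 against I/R they spanned -0.22 to 0.01 in Gja4, -0.10 to 0.07 in Gjc1 and -0.12 to 0.08 in Jup. For Sham+B12 against Sham they spanned -0.05 to 0.13 in Gja4, -0.14 to 0.03 in Gja5, -0.19 to 0.07 in Dsp and -0.29 to 0.01 in Jup. For I/R+B12 against Sham+B12 they spanned -0.45 to 0.13 in Gja1, -0.17 to 0.06 in Gja4, -0.22 to 0.03 in Pkp2 and -0.20 to 0.06 in Jup, and in the interaction -0.09 to 0.28 in Pkp2 and -0.05 to 0.25 in Jup. The 6 called genes named from the related lists kept their direction in every alternative that tested them, and each lost its call in at least 5 of them. With 3 libraries a group and depth known only by estimate, differences of the size seen in Gja4, Jup and Pkp2 could not be told from 0.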
